A study of Mus musculus with 9 samples.

Results

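The interferon gamma induced GTPase genes described here are 10 mouse genes, Tgtp1, Tgtp2, Igtp, Irgm1, Irgm2, Iigp1, Gbp2, Gbp3, Gbp6 and Gbp7, out of 17846 gene rows in the liver RNA-seq tables. They were selected by their symbols from 2 gene families, and with their differences between the groups already known, so their values in these comparisons are a description and carry no test. The 9 mice were male, of strain C57/BL and genotype WT, and 3 belonged to Control, 3 to NASH and 3 to NASH+Exercise. Control mice received a normal chow diet without training. NASH mice received the Ath diet, a feed with cholesterol and cholate, for 20 weeks and no training. NASH+Exercise mice received the Ath diet for 12 weeks followed by 8 weeks of treadmill training. Their total time on the Ath diet is not given, so whether the diet went on during training is not known here. A library was made from the liver of each mouse, mice are named here by group and number, and nothing states that the mice of a group came from separate cages or days.

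The proteins of these genes form part of the cell's own defence against microbes that live in vacuoles. Tgtp1, Tgtp2 and Iigp1 encode effector GTPases of the immunity-related GTPase (IRG) family, which load onto vacuole membranes, whereas Igtp, Irgm1 and Irgm2 encode regulatory IRG proteins that sit on the cell's own membranes and hold the effectors inactive. The Gbp genes encode guanylate-binding proteins, large GTPases of a separate family that coat and break up vacuoles and microbes. Interferon gamma, made mainly by T and NK cells, signals through its receptor and the kinases JAK1 and JAK2. Promoters of its target genes often carry the gamma activated site (GAS) or the interferon-stimulated response element (ISRE), the latter bound by IRF proteins such as IRF1. Iigp1 is also known for a promoter that is used in the unstimulated liver.

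The promoters are shown first, since GAS and ISRE are motifs through which interferon gamma signalling can reach its target genes. RefSeq windows of GRCm38.p6 covering the 250 bases before the start site were searched for 8 of the 10 genes. No window was at hand for Gbp6, and Iigp1 was left out of the search, so its motifs are not described here. The ISRE was searched as GAAANNGAAA or, on the other strand, TTTCNNTTTC, and the GAS as TTCNNNGAA, which reads the same on both strands. All 8 genes held an ISRE in a window, as did 2.98% of the 32851 windows in the table. The 8 genes had 9 windows, and the further window of Gbp3, at chr3:142560106-142560355, held neither motif. Of the 9 other IRG and GBP genes whose windows were searched, 4 held an ISRE and 3 a GAS. A GAS was present in 5 of the 8 genes (7.02% of all windows), and these 5, Gbp7, Tgtp1, Tgtp2, Igtp and Irgm2, are those with both motifs (0.33% of all windows). In 4 of them the GAS was followed after 2 bases by the ISRE. This arrangement occurred in 5 of the 32851 windows (0.0152%), those of Tgtp1, Tgtp2, Igtp, Irgm2 and a further IRG gene, Gm12185. The 4 elements are shown on the strand of their genes, with GAS and ISRE in capitals, at chr11:48992311-48992342 (Tgtp1, minus), chr11:49064270-49064301 (Tgtp2, minus), chr11:58199503-58199534 (Igtp, plus) and chr11:58214894-58214925 (Irgm2, plus). A match of letters is a description and says nothing of binding.
Tgtp1: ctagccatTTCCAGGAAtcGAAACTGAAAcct
Tgtp2: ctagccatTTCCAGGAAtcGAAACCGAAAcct
Igtp: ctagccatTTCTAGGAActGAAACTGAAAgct
Irgm2: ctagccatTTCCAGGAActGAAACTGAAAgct

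Irgm1 and Gbp2 are shown for contrast, since both held an ISRE and no GAS within the window. Tgtp1 is given over the same length, so that the place of its element can be seen. The Tgtp1 window lies at chr11:48992247-48992496 (minus strand), with the GAS starting 88 bases and the ISRE ending 68 bases before the start site. The Irgm1 window at chr11:48871421-48871670 (minus strand) held a pair of ISRE matches that share their middle bases, from 30 to 15 bases before the start. The Gbp2 window at chr3:142620413-142620662 (plus strand) held 1 ISRE, from 59 to 50 bases before the start. Capitals mark the matches.
Tgtp1: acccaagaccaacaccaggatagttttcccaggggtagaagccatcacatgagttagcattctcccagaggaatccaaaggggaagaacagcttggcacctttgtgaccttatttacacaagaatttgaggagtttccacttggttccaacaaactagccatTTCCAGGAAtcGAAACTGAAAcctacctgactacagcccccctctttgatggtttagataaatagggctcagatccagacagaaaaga
Irgm1: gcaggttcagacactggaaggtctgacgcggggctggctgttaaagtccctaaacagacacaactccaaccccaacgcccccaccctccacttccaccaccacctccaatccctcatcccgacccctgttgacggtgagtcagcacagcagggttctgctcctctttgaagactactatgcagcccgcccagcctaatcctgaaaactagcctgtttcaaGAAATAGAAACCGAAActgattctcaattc
Gbp2: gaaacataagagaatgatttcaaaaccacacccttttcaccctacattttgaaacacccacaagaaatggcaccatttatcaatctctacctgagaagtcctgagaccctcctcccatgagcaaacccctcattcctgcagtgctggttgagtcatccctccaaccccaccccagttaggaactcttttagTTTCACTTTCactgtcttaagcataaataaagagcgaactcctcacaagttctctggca

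In the genome the IRG genes Irgm1, Tgtp1 and Tgtp2 lie together on chromosome 11, from 48865245 to 49064212 on GRCm38.p6. Igtp and Irgm2 follow on the same chromosome between 58199556 and 58222783, and Iigp1 is on chromosome 18. Gbp7, Gbp3 and Gbp2 form a row on chromosome 3 between 142530336 and 142638008, and Gbp6 is on chromosome 5 from 105270702 to 105295871.

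The libraries held 20085976 to 22495408 estimated reads. Hepatocyte markers were abundant in every mouse, with a summed level of 8 markers between 91796 and 128012 TPM (transcript reads scaled by transcript length and by library), and none of them was at 0. All 10 genes passed the filter on low counts. Levels are given below in TPM, and fold changes come from counts normalised by TMM, a scaling that centres most genes. The TMM factors of the Control mice were 0.80 to 0.98, those of the NASH mice 1.09 to 1.23 and those of the trained mice 0.91 to 1.08, so ratios of TPM are larger than the fitted folds for NASH against either other group.

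Among the 3 effector IRG genes, Tgtp1 showed the widest separation. Its level was 1.81, 2 and 3.02 TPM in Control mice 3, 4 and 29. In NASH mice 5, 19 and 20 it was 57.2, 34.2 and 51 TPM. In NASH+Exercise mice 8, 18 and 22 it was 14.3, 8.35 and 5.51 TPM. The 3 groups did not overlap, with every NASH+Exercise mouse between the Control and the NASH mice. The fitted difference was 15.8-fold higher in NASH than in Control (log2 fold change 3.98, SE 0.33) and 4.27-fold lower in NASH+Exercise than in NASH (log2 fold change -2.09, SE 0.30). Against Control, NASH+Exercise was 3.70-fold higher (log2 fold change 1.89, SE 0.32).

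Tgtp2, the neighbouring copy, measured 0.35 and 0.39 TPM in Control mice 3 and 4 and 3.96 TPM in Control 29. NASH mice lay at 11.4, 12.2 and 12.2 TPM, above all others, and NASH+Exercise mice 8, 18 and 22 at 5.35, 2.73 and 1.86 TPM, which overlapped with Control because of mouse 29. The log2 fold change was 2.61 (SE 0.69) for NASH against Control and -1.60 (SE 0.65) for NASH+Exercise against NASH. Without Control 29 the former was 4.42.

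Tgtp1 and Tgtp2 are nearly the same sequence. Their longest coding transcripts were 99.33% identical over 2823 aligned positions, and 91.4% of the 50-base stretches of Tgtp1 also occurred in a transcript of another gene, in most cases Tgtp2. How the reads were divided between them is therefore uncertain. Tgtp1 took 72.8 to 84.2% of the reads of the pair in 8 mice, but 43.0% in Control 29 (99 of the 230 reads), the mouse in which Tgtp2 stood apart. With the counts of both added, the log2 fold change was 3.59 (SE 0.43) for NASH against Control, -1.98 (SE 0.40) for NASH+Exercise against NASH and 1.60 (SE 0.41) for NASH+Exercise against Control. The summed pair kept the order of the groups, with Control mice at 2.16 to 6.98 TPM, NASH mice at 46.3 to 68.6 TPM and NASH+Exercise mice at 7.37 to 19.7 TPM.

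**Figure D1:**
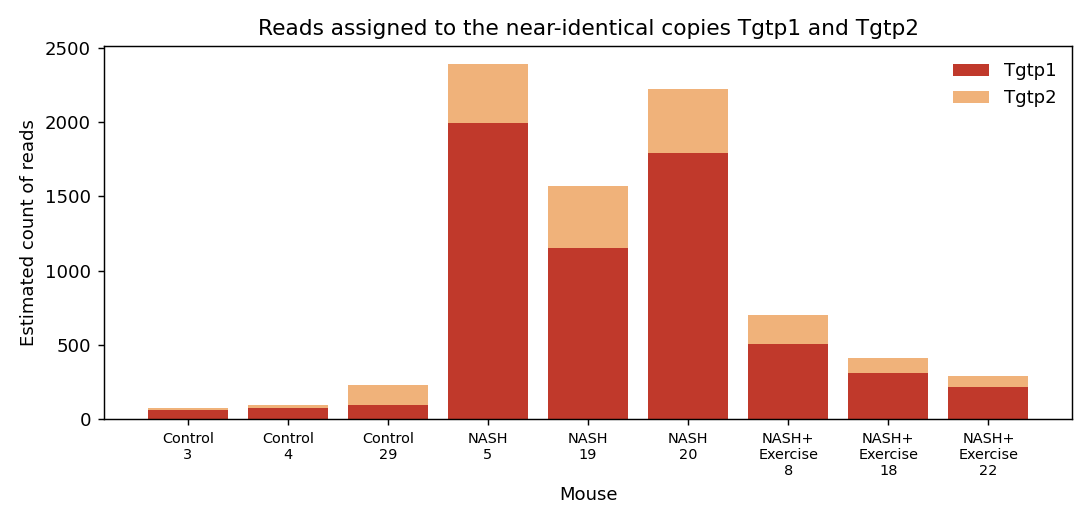
Estimated reads (vertical axis, linear from 0) given to Tgtp1 and Tgtp2 in each of the 9 mice, stacked in 1 bar per mouse. Control 29 is the only mouse with fewer reads for Tgtp1 (99) than for Tgtp2 (131), and the NASH bars reach 1567 to 2391 reads.

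Iigp1, the third effector, was the most abundant of the 10 genes in every group. Control mice 3, 4 and 29 had 128, 45.8 and 161 TPM, NASH mice 5, 19 and 20 had 231, 241 and 304 TPM, and NASH+Exercise mice 8, 18 and 22 had 216, 151 and 94.8 TPM. NASH lay above Control, whereas NASH+Exercise overlapped with Control in part, mouse 8 being above every Control mouse and Control 4 below every NASH+Exercise mouse. The log2 fold changes were the smallest of the effectors, 0.85 (SE 0.35) for NASH against Control and -0.50 (SE 0.35) for NASH+Exercise against NASH. On TPM, NASH+Exercise stayed just below NASH (216 against 231), while after TMM scaling the groups overlapped.

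The regulatory IRG genes had higher levels in Control than the Tgtp pair and smaller differences. Igtp was at 18.2, 16.9 and 31.8 TPM in Control 3, 4 and 29, at 99.9, 61.7 and 109 TPM in NASH 5, 19 and 20, and at 33.4, 24.1 and 22 TPM in NASH+Exercise 8, 18 and 22. NASH stood apart from both other groups, which overlapped. The fitted level was 3.10-fold higher in NASH than in Control and 2.83-fold lower in NASH+Exercise than in NASH, and NASH+Exercise against Control gave a log2 fold change of 0.13 (SE 0.25).

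Irgm2 had the same arrangement, with 14.5, 14.9 and 35.9 TPM in Control 3, 4 and 29, 76.7, 48 and 59.2 TPM in NASH 5, 19 and 20, and 32.1, 20.9 and 18.6 TPM in NASH+Exercise 8, 18 and 22. Its log2 fold change was 1.12 (SE 0.30) for NASH against Control and -1.10 (SE 0.30) for NASH+Exercise against NASH, and that of NASH+Exercise against Control was 0.02 (SE 0.30), with a sign that depended on the mice and the tool used. Irgm1 differed least of the regulators. Its level was 22.4, 18.1 and 40.7 TPM in Control 3, 4 and 29, an even 67.7, 67 and 69.4 TPM in NASH 5, 19 and 20, and 52.8, 39.3 and 31.4 TPM in NASH+Exercise 8, 18 and 22. Its log2 fold change was 0.95 (SE 0.20) for NASH against Control and -0.45 (SE 0.20) for NASH+Exercise against NASH.

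The 4 guanylate-binding protein genes were scarce in Control, and Gbp2 had the largest difference among them. It was at 1.36, 1.18 and 3.65 TPM in Control 3, 4 and 29, at 24.8, 16.2 and 28.7 TPM in NASH 5, 19 and 20, and at 12.1, 7.71 and 4.89 TPM in NASH+Exercise 8, 18 and 22. The groups did not overlap. Gbp2 was 8.75-fold higher in NASH than in Control (log2 fold change 3.13, SE 0.41), 2.38-fold lower in NASH+Exercise than in NASH (log2 fold change -1.25, SE 0.37), and 3.67-fold higher in NASH+Exercise than in Control.

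Gbp3 was at 0.79, 0.48 and 2.66 TPM in Control 3, 4 and 29, at 10.8, 11.7 and 15.8 TPM in NASH 5, 19 and 20, and at 6.93, 4.45 and 2.54 TPM in NASH+Exercise 8, 18 and 22. NASH+Exercise lay below NASH, and its mouse 22 was at the level of Control 29. The log2 fold changes were 2.90 (SE 0.49) for NASH against Control, -1.21 (SE 0.44) for NASH+Exercise against NASH and 1.70 (SE 0.49) for NASH+Exercise against Control.

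Gbp6 and Gbp7 were arranged in the same way. Gbp6 measured 2.1, 1.22 and 4.39 TPM in Control 3, 4 and 29, 21.7, 15.7 and 25.4 TPM in NASH 5, 19 and 20, and 12.4, 7.71 and 3.82 TPM in NASH+Exercise 8, 18 and 22. Gbp7 was the least abundant of the 10 in NASH, with 1.66, 0.27 and 2.69 TPM in Control 3, 4 and 29, 6.12, 7.66 and 8.88 TPM in NASH 5, 19 and 20, and 5.02, 2.81 and 1.7 TPM in NASH+Exercise 8, 18 and 22. For both genes NASH lay above the other groups, and NASH+Exercise overlapped with Control. The log2 fold change of Gbp6 was 2.63 (SE 0.44) for NASH against Control and -1.16 (SE 0.41) for NASH+Exercise against NASH, and that of Gbp7 was 1.96 (SE 0.55) and -1 (SE 0.53). Gbp6 also shares sequence with other genes, since 90.2% of its 50-base stretches occurred in the annotated gene Gm43302 and 62.3% in Gbp10, whereas the 7 genes other than Gbp6 and the Tgtp pair shared 1.0 to 12.8%.

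**Figure D2:**
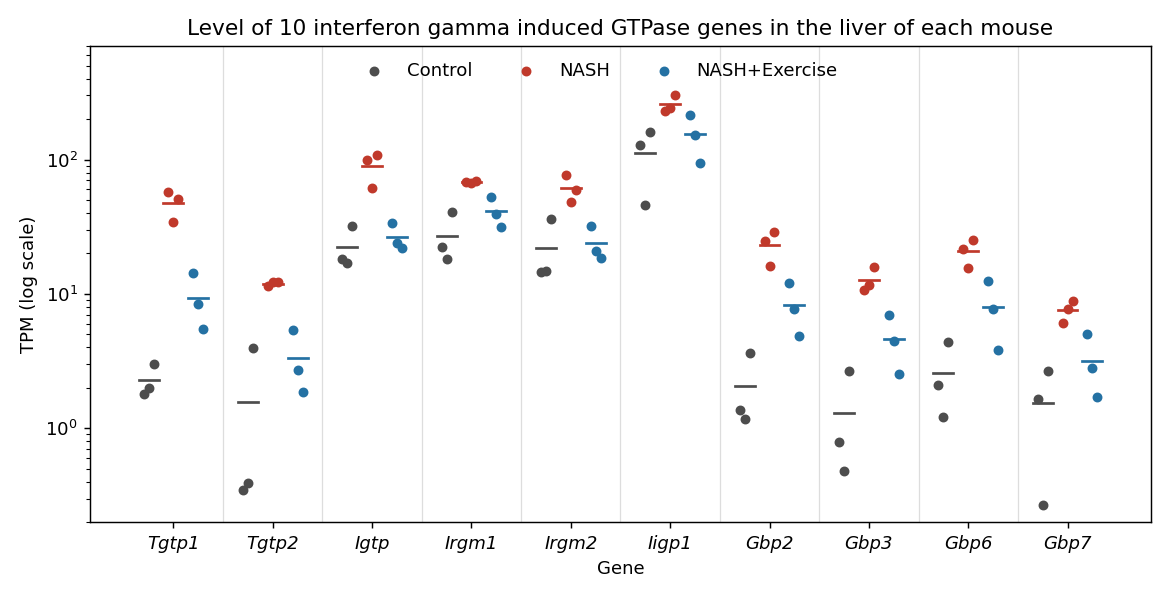
Level in TPM (vertical axis, log scale) of the 10 genes in Control, NASH and NASH+Exercise, with 1 point per mouse and a bar at the mean of 3 mice. The NASH points lie above the Control points for each gene, from Gbp7 at 6.12 to 8.88 TPM up to Iigp1 at 231 to 304 TPM.

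By mean TPM, every gene was in the order NASH, NASH+Exercise, Control. Across genes, the order in NASH ran from Iigp1 (259 ± 39.3 TPM, SD, n = 3) through Igtp (90.1 ± 25), Irgm1 (68 ± 1.22), Irgm2 (61.3 ± 14.5), Tgtp1 (47.4 ± 11.9), Gbp2 (23.2 ± 6.41), Gbp6 (20.9 ± 4.87), Gbp3 (12.8 ± 2.67) and Tgtp2 (11.9 ± 0.47) to Gbp7 (7.55 ± 1.38). In this order the ranges of NASH mice did not meet between Iigp1 and Igtp, between Tgtp1 and Gbp2 and between Tgtp2 and Gbp7, and each of the other 6 pairs of neighbours overlapped. In Control, Iigp1, Irgm1, Igtp and Irgm2 had means of 112, 27, 22.3 and 21.8 TPM, and each of the remaining 6 genes was at 2.57 TPM or less.

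The first comparison asks what the Ath diet did. A gene was called a differentially expressed gene (DEG) where edgeR gave an adjusted p below 0.05 and a log2 fold change beyond 1 in either direction. In NASH against Control, 8 of the 10 genes were called higher, all but Irgm1 and Iigp1, where 15.3% of the 13619 genes tested were called higher. All 10 had non-overlapping groups after TMM scaling, as had 27.4% of genes in that direction. The median log2 fold change was 2.29, beside 0.01 for all genes tested. Since the genes were picked with this contrast known, the counts are given without a reading.

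The second comparison sets the trained mice against the sedentary NASH mice. A difference in the time on the Ath diet, if there was one, cannot be told apart from training here. Relative to sedentary NASH, all 10 genes in NASH+Exercise had a log2 fold change below 0, as had 54.9% of all genes, with a median of -1.18 beside -0.03 for all genes. Tgtp1 was the only one called lower, where 0.0367% of all genes were (5 genes). The groups did not overlap in 9 of the 10, Iigp1 being the exception, against 14.9% of genes in that direction. The call depended on the division of reads between the Tgtp copies, on the tool and on single mice. With Tgtp1 and Tgtp2 summed, edgeR called 0 of the list, the pair included. DESeq2 on the 6 mice called 7 of the 10 lower (126 of 13458 genes), all but Irgm1, Iigp1 and Gbp7, edgeR on the same 6 mice called 0, and leaving out any 1 of Control 3, 4 or 29, NASH 5 or 20, or NASH+Exercise 18 or 22 also left 0. Without NASH 19, edgeR called Tgtp1 and Igtp.

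NASH+Exercise against Control gave intermediate values. Tgtp1, Gbp2, Gbp3 and Gbp6 were called higher, 4 of 10 beside 10.4% of all genes, and the median log2 fold change was 0.99, beside 0.00 for all genes. Groups did not overlap for Tgtp1, Gbp2 and Gbp3 after TMM scaling (21.5% of genes in that direction). The count was 2 without Control 3, Control 4, NASH+Exercise 8 or NASH+Exercise 18. The 3 comparisons share their mice, so their agreement is not separate evidence.

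**Figure D3:**
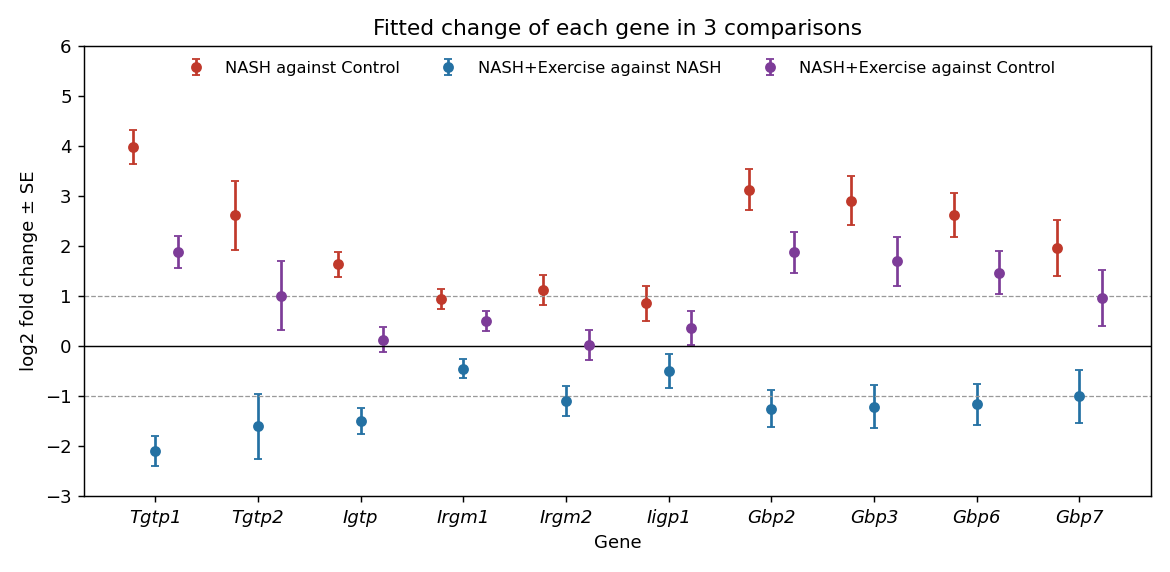
Fitted log2 fold change of each gene (vertical axis) with its SE as a bar, for the 3 comparisons, with dashed lines at -1 and 1. NASH against Control runs from 0.85 for Iigp1 to 3.98 for Tgtp1, and NASH+Exercise against NASH from -0.45 for Irgm1 to -2.09 for Tgtp1.

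Within groups, the genes ranked the mice alike. Control 29 had the highest normalised count of its group for 10 of the 10 genes, as it had for 34.5% of all genes. NASH+Exercise 8 was the highest of its group for 10 of 10 (37.6% of all genes) and NASH+Exercise 22 the lowest for 10 of 10 (39% of all genes). In NASH the highest mouse was number 20 for 8 genes and number 5 for 2, and number 19 was the lowest for 9 (for 6 on TPM, where number 5 was the lowest for 4). The ratio of the highest to the lowest mouse had a median over the 10 genes of 2.52 among Control, 1.66 among NASH and 2.02 among NASH+Exercise mice, beside 1.41, 1.25 and 1.31 over all genes.

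The 16 other IRG and GBP genes with enough counts showed a similar order, with Control 29 highest for 12, NASH+Exercise 8 highest for 14 and NASH+Exercise 22 lowest for 13. These rankings were read from the same data and were not tested. Without Control 29, 10 of the 10 genes were called higher in NASH against Control, and without Control 3 or without Control 4 it was 6. Fold changes also moved by more than 1.5 times without Control 29. For NASH against Control the log2 fold change became 3.75 for Gbp3, and for NASH+Exercise against Control it became 2.84 for Tgtp2 and 2.56 for Gbp3.

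**Figure D4:**
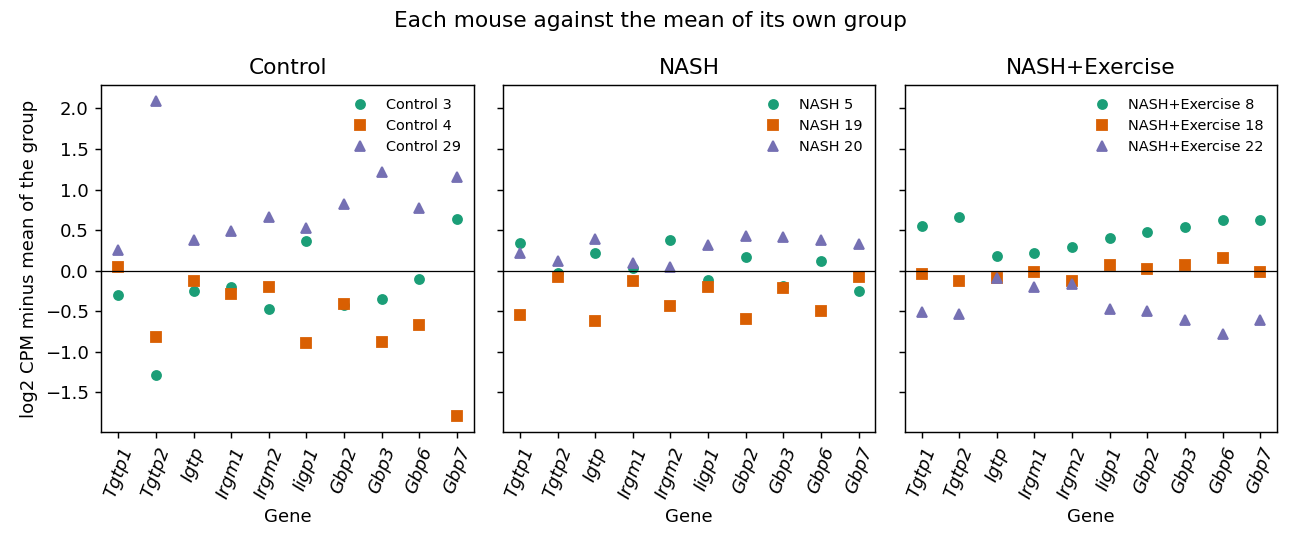
Normalised level of each gene in each mouse minus the mean of its own group (vertical axis, log2 CPM), in 3 panels for Control, NASH and NASH+Exercise. Control 29 and NASH+Exercise 8 are above 0 for all 10 genes, and NASH+Exercise 22 is below 0 for all 10.

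In bulk liver RNA, fewer cells of a type and less RNA per cell cannot be told apart. Markers of T and NK cells and of macrophages differed in the same direction as the GTPase genes. The counts of markers called higher in NASH against Control stand beside 15.3% of all genes. The summed level of 14 T and NK cell markers was 4.96 to 9.9 TPM among Control, 41.9 to 48.9 TPM among NASH and 15 to 26.3 TPM among NASH+Exercise mice, with 12 of the 13 tested called higher in NASH against Control and 0 called in NASH+Exercise against NASH by edgeR (8 at an unadjusted p under 0.05). Gzma or Ncr1 was at 0 in some mice, and no CD3, CD4 or CD8 gene was. The 10 macrophage markers summed to 41.6 to 82.4 TPM among Control, 466 to 557 TPM among NASH and 289 to 357 TPM among NASH+Exercise mice, with 9 of 10 called higher in NASH against Control, and none at 0 in any mouse.

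Other cell types were less uniform. Of the neutrophil markers 4 of 6 were called higher in NASH against Control, with sums of 8.81 to 16.3 TPM among Control, 86.8 to 112 TPM among NASH and 51.1 to 82 TPM among NASH+Exercise mice. Of the B cell markers 0 of 4 were called by edgeR (1 at an unadjusted p under 0.05), with sums of 2.07 to 6.58, 5.79 to 9.06 and 1.76 to 5.05 TPM in the same order. Of the cholangiocyte markers 3 of 5 were called higher, with sums of 26.12 to 34.45 TPM among Control and 68.05 to 122.9 TPM among NASH+Exercise mice. Among NASH mice, number 19 stood apart at 566 TPM, beside 139 and 130 TPM in numbers 5 and 20. Stellate cell markers had 2 of 6 called higher and sinusoidal endothelial cell markers 1 of 6. All 8 hepatocyte markers had a log2 fold change below 0 in NASH against Control (median -0.61, 1 called lower), while by mean TPM 6 were lower and 2 higher.

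The same markers also differed within groups. Control 29 had the highest T and NK cell sum (9.9 against 4.96 and 5.8 TPM) and macrophage sum (82.4 against 41.6 and 47.4 TPM) of its group, and NASH+Exercise 8 likewise (26.3 against 18.4 and 15 TPM, and 357 against 289 and 307 TPM). In NASH the mouse with the lowest TPM of 6 of the GTPase genes was number 19. It had the highest T and NK cell sum (48.9 against 41.9 and 42.9 TPM) and the lowest macrophage sum (466 against 557 and 488 TPM). The part of these cells in the differences of the GTPase genes was not tested.

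The other IRG and GBP genes are a list written from general knowledge, but with earlier results of these data known. Most of them followed the 10 in direction, which is not separate evidence. In NASH against Control 12 of the 16 tested were called higher, beside 15.3% of all genes, and 0 lower. Their median log2 fold change was 2.11. Gbp10 rose by 3.12 on the log2 scale (SE 0.42, edgeR adjusted p = 0.000386), with Control mice at 0.51 to 2.06 TPM and NASH mice at 10.5 to 15.3 TPM. It holds 62.3% of the 50-base stretches of Gbp6, so how reads were divided between these genes is uncertain. Ifi47, a further IRG gene, rose by 2.18 (SE 0.21, adjusted p = 3.32e-05) and Gbp8 by 2.85 (SE 0.58, adjusted p = 0.00462). Gm4951 on the other hand had 17.8 to 62.7 TPM in Control and 48.6 to 62.2 TPM in NASH (log2 fold change -0.09, adjusted p = 0.872), and Irgq had a log2 fold change of -0.53 (adjusted p = 0.0117).

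In NASH+Exercise against NASH, 15 of the 16 had a log2 fold change below 0, as had 54.9% of all genes, with a median of -0.81. By edgeR 0 were called and 4 had an unadjusted p under 0.05, while DESeq2 called 2 and limma on log2(TPM + 1) called 1. Gm4841 had the lowest value, -1.93 (SE 0.51, adjusted p = 0.151), with 5.95 to 10.1 TPM in NASH and 0.55 to 3.12 TPM in NASH+Exercise. Gm12185, the gene that shares the promoter arrangement of the Tgtp pair, measured 0.16 to 0.50 TPM among Control, 0.72 to 0.99 TPM among NASH and 0.17 to 0.53 TPM among NASH+Exercise mice (log2 fold change 1.09 and -0.86, adjusted p = 0.0557 and 0.328). 9930111J21Rik2 had 0 reads in every Control mouse and 0.73 to 0.90 TPM in NASH, so no fold is given. In NASH+Exercise against Control 7 of the 16 were called higher, beside 10.4% of all genes.

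Interferon gamma itself was close to the limit of the depth. Ifng had 0 reads in each of the 3 Control mice, where a count of 0 allows up to 3 reads, 8, 7 and 7 reads in NASH 5, 19 and 20, and 3, 5 and 3 reads in NASH+Exercise 8, 18 and 22. It did not pass the filter and was not tested. NASH did not overlap with either other group.

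Downstream of the ligand, 7 of 13 receptor and signalling genes were called higher in NASH against Control, beside 15.3% of all genes. Ifngr1, the ligand-binding chain of the receptor, rose by 1.44 (SE 0.12, adjusted p = 1.56e-05), with Control mice at 8.11 to 11.1 TPM and NASH mice at 32.1 to 36.3 TPM. Ifngr2, the signalling chain, had a log2 fold change of 0.47 (adjusted p = 0.0158) and the kinase gene Jak1 of 0.25 (adjusted p = 0.104), both below the fold threshold. Among the IRF genes, Irf1 rose by 1.38 (SE 0.13, adjusted p = 3.31e-05) and Irf8, which is restricted to immune cells, by 2.63 (SE 0.16, adjusted p = 4.04e-06). Ciita, the switch for MHC class II genes, rose by 3.83 (SE 0.48, adjusted p = 0.000234).

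Of these 13 genes, edgeR called 0 in NASH+Exercise against NASH, with 6 at an unadjusted p under 0.05, and DESeq2 and limma called 1 each. Ciita had the lowest value, -1.14 (SE 0.40, adjusted p = 0.234), with 4 to 5.55 TPM in NASH and 1.21 to 2.37 TPM in NASH+Exercise. Irf8 had -0.61 (SE 0.14, adjusted p = 0.125) and Ifngr1 -0.36 (SE 0.12, adjusted p = 0.205). For these 3 genes the groups did not overlap, on either scale. Of the 13 genes, 6 were lower without overlap after TMM scaling, beside 14.9% of all genes, and 9 on TPM. The median of all genes was itself lower on log2(TPM + 1), at -0.26, than after TMM scaling, at -0.03. Irf1 had -0.20 (SE 0.13, adjusted p = 0.497), with groups that overlapped after TMM scaling but not on TPM (34.3 to 41.5 TPM in NASH+Exercise, 46.7 to 57 TPM in NASH), and Irf2, which counters IRF1, had 0.17 (SE 0.14, adjusted p = 0.603). The median over the 13 genes was -0.28, and over the 10 GTPase genes it was -1.18.

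The cytokines, receptors and factors that induce interferon gamma had 7 of 10 called higher in NASH against Control, beside 15.3% of all genes. Il27, which encodes a cytokine chain, was called higher (adjusted p = 0.00368) with 0 to 2 reads in Control and 11 to 17 in NASH. Eomes, a factor of NK and CD8 T cells, rose by 2.71 (adjusted p = 0.00956), and Il18rap, a chain of the IL-18 receptor, by 2.55 (adjusted p = 0.000788). Reads were few, with 1 to 5 in Control and 10 to 36 in NASH for Eomes. Il18rap had 4 to 9 reads in Control and 42 to 46 in NASH. The negative regulators had 2 of 9 called higher, near the 15.3% of all genes, and of the 3 with the largest difference Socs1 rose by 1.97 (adjusted p = 0.000557) and Socs3 by 1.27 (adjusted p = 0.0395), whereas Cish had a log2 fold change of 1.35 (adjusted p = 0.187). Neither list had a call in NASH+Exercise against NASH by edgeR, DESeq2 or limma, with 2 genes each at an unadjusted p under 0.05 in edgeR. Socs1 had a log2 fold change of -0.12 there (SE 0.26, adjusted p = 0.877), and Socs3 of 0.92 (SE 0.40, unadjusted p = 0.0481, adjusted p = 0.322), with 23.2 to 24 TPM in NASH and 19.2 to 56.8 TPM in NASH+Exercise.

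Other known targets of interferon gamma, such as chemokines, immunoproteasome subunits and MHC class II genes, had 20 of 24 called higher in NASH against Control, with a median of 2.43. Ubd, which encodes a ubiquitin-like protein, rose by 6.25 (SE 0.57, adjusted p = 3.86e-05) and Casp4, an inflammatory caspase, by 3.74 (SE 0.67, adjusted p = 0.00211). Ubd had only 4 to 6 reads in Control, and 295 to 756 in NASH. Nos2, the inducible nitric oxide synthase, was called higher as well (adjusted p = 0.000254), with 1 read in each Control mouse and 28 to 57 in NASH. In NASH+Exercise against NASH, 22 of the 24 had a log2 fold change below 0, as had 54.9% of all genes, with a median of -0.62. By edgeR 0 were called, with 16 at an unadjusted p under 0.05, and DESeq2 called 3 and limma 2. Casp4 had a log2 fold change of -0.15 (adjusted p = 0.922) there and Ubd of -1.79 (adjusted p = 0.122).

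Type I interferon targets had 13 of 18 called higher in NASH against Control (median 1.55), beside 15.3% of all genes. The largest differences were those of Ifi44, Oas1a and Oas3, which rose by 3.12, 3.10 and 2.60. Their median in NASH+Exercise against NASH was -0.45, and edgeR, DESeq2 and limma called 0, with 8 at an unadjusted p under 0.05 in edgeR.

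The autophagy and ubiquitin genes whose products help load the GTPases on membranes had a direction that depended on the scaling. After TMM scaling 12 of 13 were below 0 in NASH against Control, where 49% of all genes were, with a median log2 fold change of -0.49. By mean TPM 7 were lower and 6 higher, and their summed level overlapped, at 1645 to 1782 TPM among Control and 1603 to 1836 TPM among NASH mice. Map1lc3a, a member of the LC3 family, fell by 1.10 (SE 0.16, adjusted p = 0.000508), a call that was lost with scaling by library size only, with limma on TPM and without Control 4. The ubiquitin ligase gene Trim21 rose 2.29-fold (adjusted p = 0.000786), and Atg12 had -0.63 (adjusted p = 0.00144). In NASH+Exercise against NASH the fitted median was 0.07. By contrast, all 13 had a lower mean TPM and their sum was lower in every NASH+Exercise mouse (1253 to 1493 TPM). All genes moved with the scale too, with a median log2 fold change of -0.26 on log2(TPM + 1) and -0.03 after TMM scaling. Of these 13 genes 0 were called there by edgeR, DESeq2 or limma, and 0 had an unadjusted p under 0.05 in edgeR.

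**Figure D5:**
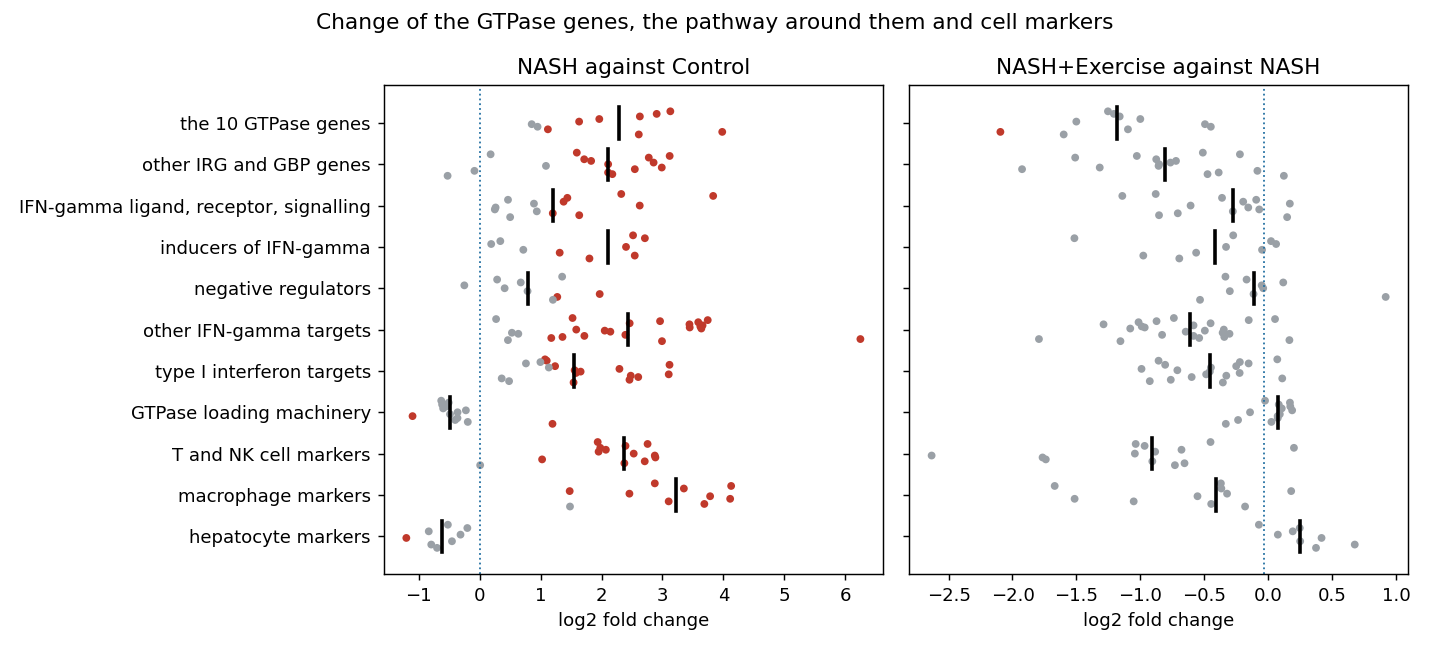
Log2 fold change (horizontal axis) of each gene in the GTPase list, the pathway lists and 3 marker lists, for NASH against Control and NASH+Exercise against NASH, with DEGs in red, others in grey, a black bar at the median of the list and a dotted line at the median of all genes. The medians of the 10 GTPase genes are 2.29 and -1.18, those of the loading machinery -0.49 and 0.07, the latter with a direction that is the opposite on TPM. Tested genes with at most 3 reads in every Control mouse (9930111J21Rik2, Il27 and Nos2) are not drawn.

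The genes outside the 10 whose pattern over the 9 mice was most like their mean were named by a fixed measure, the root mean square difference of centred log2 CPM. They were Il18rap (0.23), Incenp, a subunit of the chromosomal passenger complex (0.27), Gbp9 (0.28), Slc28a2, a nucleoside transporter (0.28), Ddx60, a helicase-like gene (0.30), and Tnfrsf13b, a receptor of B cells (0.30), beside a median of 1.06 over 13609 genes. Of the 10 themselves, Gbp6 was closest to the mean (0.23) and Tgtp1 farthest (0.72). Il18rap lay at 0.07 to 0.20 TPM among Control, 0.93 to 1.12 TPM among NASH and 0.22 to 0.70 TPM among NASH+Exercise mice, and like the GTPase genes it was highest in Control 29 and NASH+Exercise 8 of their groups. All 9 points share the libraries and their depth, and the likeness carries no test.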

How the data were processed

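Liver mRNA libraries of 9 mice were used, 1 per mouse. For each Entrez gene the authors deposited expected counts that are not normalized (29.0 to 32.8% not whole), and they also deposited TPM and FPKM. The submitters' processing notes list HISAT2 2.1.0, Bowtie2 2.2.5, RSEM 1.2.8 and GRCm38.p6. The deposited FPKM values were not used, the deposited TPM values gave levels, and rounded counts gave tests. RefSeq (GRCm38.p6) named 17728 of 17846 identifiers. One file repeats all mice, and 0 of 428304 repeated values differed.

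Tests used edgeR 4.0.16 (R 4.3.3, filterByExpr with at least 10 counts and a total of 15, TMM, robust quasi-likelihood fit of all 9 mice by group, Benjamini-Hochberg over 13619 genes), with calls where the adjusted p was under 0.05 and the log2 fold change beyond 1 in either direction. SE is the log2 fold change divided by the root of F. DESeq2 1.42.0 and limma 3.58.1, other scalings, filters and left-out mice were alternatives, 18 in all. The procedure was tested on simulated data. Depth was similar between mice, and counting intervals cover counting error only. With no stated separation of litters or cages, p-values measure the spread between these mice.

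The 10 genes and the gene lists were chosen with earlier results of these data known. All listed IRG, GBP and signalling genes that passed the filter could be named, in other lists the 3 with the largest difference of NASH against Control and any called by edgeR in NASH+Exercise against NASH, and the 6 genes most alike. Gbp11, Cxcl11, Mx1, Mx2 and Ighm were listed and are not analysed here. Irgc1, Ifng, Il12a, Il12b, Ido1 and Ncr1 did not pass the filter. The values of 1 signalling gene in these counts are not reported here. Identity and shared stretches were computed on GENCODE transcripts with Biopython 1.88 in Python 3.11.15, and promoter windows came from a RefSeq table.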

Additional observations from a re-analysis of the deposited data

How the results depend on the processing

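Depth left genes with few reads, such as Ifng, untested. No paired analysis was possible because the groups share no replicate numbers. The sign of all 10 genes held under the 18 alternatives in NASH against Control and in NASH+Exercise against NASH. In NASH+Exercise against Control Irgm2 turned, to -0.19 without Control 3, -0.09 without Control 4, -0.14 without NASH+Exercise 8 and -0.0022 with DESeq2, from 0.02, and leaving out 1 mouse gave -0.19 to 0.41. The loading machinery turned there from 1 gene called lower to 1 called higher with scaling by library size only, which moved the median of all genes from 0.01 to 0.36 (NASH against Control), from -0.03 to -0.23 (NASH+Exercise against NASH) and from 0.00 to 0.15 (NASH+Exercise against Control), and under which the 10 genes had 10, 1 and 4 calls. Tested against a log2 fold change of 1 (glmTreat), the calls among the 10 genes were 5, 0 and 1 in the same order, and among the other IRG and GBP genes 7, 0 and 2. In NASH+Exercise against NASH the calls among the 10 were 7 with DESeq2, 0 with edgeR on 6 mice, 2 with limma and 0 with Tgtp1 and Tgtp2 summed, and among the other IRG and GBP genes 2 with DESeq2 and 1 with limma. In NASH+Exercise against Control they were 2 of the 10 without the filter, and of the other IRG and GBP genes 4 with edgeR on 6 mice and 3 with limma. Leaving out 1 mouse gave 6 to 10, 0 to 2 and 2 to 5 calls among the 10, and 9 to 13, 0 and 4 to 9 among the others. The cause of these shifts was not tested. Over all settings, 161 of 179 gene values kept their side of the threshold and their direction in NASH against Control. The same held for 161 of 179 in NASH+Exercise against NASH and 160 of 179 in NASH+Exercise against Control. In NASH+Exercise against NASH only Tgtp1 was called to begin with, so most values kept their side by staying uncalled. The Tgtp1 call was lost in 10 of the 18 alternatives.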
